A study of Rattus norvegicus with 241 samples.

Results

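CD45+ leukocytes were sorted from mammary glands of 8 vehicle-treated ACI rats at the end of a tumor experiment. The paper calls these glands normal. Bulk RNA-seq profiles of the leukocytes were compared between 4 rats that had received estradiol (E2) and 4 rats that had not. ACI is an inbred strain in which chronic E2 gives rise to mammary tumors. The members were chosen by the labels alone: the CD45 sort, vehicle treatment and presence or absence of E2, which gave 8 of the 202 bulk libraries and of the 241 samples of the series.

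All 8 rats were virgin females given vehicle by oral gavage from 38 days of age, for 21 days at 2 doses per day. At 60 days they were implanted with silastic tubing that held air (no E2) or 37 mg of E2, and glands were taken once vehicle rats with E2 had palpable tumors. The 4 rats with E2 were tumor-bearing and the 4 rats without E2 were tumor-free, so that E2 and tumor status cannot be told apart among vehicle rats. According to the paper, visibly tumor-free glands of all rats with E2 showed epithelial overgrowth like that of pregnancy. Most vehicle rats with E2 also had microscopic adenocarcinomas in such glands. Histology of the single rats was not used here. Cells were sorted on CD24, CD29, CD31 and CD45 and sequenced from less than 10 ng of RNA with a kit that does not keep strand, so that overlapping and antisense genes share reads. The same experiment held CD45+ cells of rats given TGFBRi (the TGFβ type I receptor kinase inhibitor LY2157299, 75 mg/kg in place of vehicle, same schedule): 3 without E2, 4 tumor-free with E2 and 2 tumor-bearing with E2. Their tumor-free E2 rats give the same E2 contrast without tumors, but only after TGFBRi.

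E2 acts mainly through its nuclear receptors, encoded by ESR1 and ESR2, and through the membrane receptor GPER1. In the mammary gland ESR1 is found in a subset of luminal epithelial cells, and prolonged E2 in rats also raises pituitary prolactin, which drives milk gene transcription through STAT5. CD45, encoded by PTPRC, is the tyrosine phosphatase shared by leukocytes. The leukocytes of a mammary gland include T, NK and B cells, macrophages, dendritic cells, mast cells and neutrophils. In bulk samples fewer cells of a type and less RNA per cell cannot be told apart.

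Values below are reads per gene divided by the size factor of the library (normalized values), and changes are log2 changes of the value plus 1 with their standard error (SE), tested by limma with Benjamini-Hochberg adjustment over 13483 genes and called at an adjusted p of 0.05 or less. Per-rat values are given in the order of rats 1 to 4 of a group. The gene lists used below were chosen with earlier results of these data known. Shares of list members set beside shares of all genes are therefore a description. Vehicle CD45+ libraries held 19571343 to 25559805 reads on genes, and their log2 profiles correlated at 0.958 to 0.967 within the no E2 group, at 0.954 to 0.972 within the E2 group and at 0.935 to 0.963 between groups. PTPRC had values of 25902, 24397, 25455 and 24426 without E2 and 22324, 23803, 28666 and 23656 with E2, a change of -0.03 (SE 0.14, adjusted p = 0.955). The groups overlapped for this marker, and the leukocyte identity list as a whole (14 genes) had a median change of 0.28 against -0.04 over all genes. The summed value of this list was 178110 to 195510 without E2 and 198960 to 266760 with E2, and these groups did not overlap.

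One no E2 library lay closer to the E2 group than the others did. No E2 rat 4 lay at -6.40 on the first principal component, which held 27.9% of the variance, while the other no E2 rats lay at -51.8, -65.4 and -37.2 and the E2 rats at 54.6, 71.9, 16.4 and 17.9. The E2 rats were thus also widely spread on this component. No E2 rat 4 had more transcripts of milk proteins and of cytotoxic cells than the other no E2 rats, and its luminal sort had more milk transcripts too. The summed value of the 11 milk genes in its CD45+ cells was 42207, against 2498, 5842 and 2020 in the other no E2 rats and 7363, 29031, 20596 and 11262 in the E2 rats. Neither the milk nor the cytotoxic sum of no E2 rat 4 was above Dixon's critical value, which is used at the end. Its label was kept. For KRT8, KRT19 and SOX9 it lay with the other no E2 rats, and whether its implant or label differs from theirs was not tested. Results are given below with all 8 rats and, where they differ, without this rat. Since it was noticed by its milk and cytotoxic transcripts, calls made without it are a description and no independent support. Among the genes below that limma called without it and not with all rats, TNFRSF9 was also called in 2 of the 7 fits that left out another rat, and the others in 0 of the 7.

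With all 8 rats 38 of 13483 genes (0.282%) were called. Of these 8 were higher (0.0593% of genes tested) and 30 lower (0.223%) with E2, and in all 38 the groups did not overlap. At an unadjusted p of 0.05 there were 829 higher genes (6.15%) and 797 lower genes (5.91%). Genes with groups that did not overlap numbered 379 higher (2.81%) and 456 lower (3.38%). The number of calls depended on the tool: DESeq2 on recovered reads called 137 higher (1.02%) and 114 lower (0.846%), among them 8 of the 8 and 27 of the 30, while edgeR called 0 genes, with 1569 at an unadjusted p under 0.05 and adjusted p from 0.0620 to 0.265 for the 38. Without no E2 rat 4, limma called 129 higher (0.961%) and 53 lower (0.395%) of 13427 genes, all 38 among them. Leaving out no E2 rat 1, 2 or 3 instead gave 5, 9 and 7 calls, and leaving out E2 rat 1, 2, 3 or 4 gave 4, 18, 23 and 28.

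The 8 genes that rose with E2 were CPNE7, CNNM3, MAF, ZNRF2, CRMP1, LIME1, CELA1 and PTPN5. Of the 7 with a luminal value (CRMP1 had none), 0 had a higher mean CPM (counts scaled to the total reads on genes of the library) in the luminal than in the CD45 sort of the 4 E2 rats. By the means of the 4 no E2 rats 1 of the 7, CELA1, was higher in the luminal sort. The first class rests on the CD45 levels of the E2 rats, which the contrast also uses, so that it is a description. When the genes higher in the luminal sort by the E2 rats were left out of the fit, 0 of the remaining 8330 genes were called by limma, with 987 at an unadjusted p under 0.05, and the adjusted p of the 8 lay between 0.0798 and 0.103. LIME1 encodes an adaptor of the T cell receptor kinase LCK, MAF a transcription factor of T helper cells and macrophages, and CPNE7 a calcium-dependent phospholipid-binding protein. CRMP1 encodes a mediator of semaphorin signaling known mainly from neurons, ZNRF2 a ubiquitin ligase of endosomal membranes, and CNNM3 a member of a magnesium transporter family.

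LIME1 values were 1034, 784, 848 and 1369.9 without E2 and 1860.0, 2352, 1786 and 1597 with E2. All 4 E2 rats lay above the highest no E2 rat, which was rat 4, and the change was 0.93 (SE 0.18, adjusted p = 0.0410). MAF values were 46.1, 57.2, 52.4 and 82.3 without E2 and 196, 253, 132 and 174 with E2. Again rat 4 was the highest without E2 and the groups were apart, with a change of 1.64 (SE 0.33, adjusted p = 0.0410). CPNE7 had values of 381, 342, 489 and 1169 without E2 against 2284, 2833, 2922 and 1328 with E2. The highest no E2 rat, rat 4, came close to the lowest E2 rat, and the change was 2.10 (SE 0.38, adjusted p = 0.0310).

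ZNRF2 varied little among no E2 rats, with 319, 337, 310.4 and 336 without E2 and 1234, 1046, 576 and 979 with E2. The spread lay in the E2 group, where rat 3 was the lowest, and the change was 1.50 (SE 0.28, adjusted p = 0.0310). CRMP1 values were 200.4, 199.6, 272 and 370.4 without E2 and 568, 888, 686 and 689.6 with E2, a change of 1.47 (SE 0.26, adjusted p = 0.0259). CNNM3 values were 114, 119, 155 and 71.3 without E2 and 587, 459.9, 273 and 419 with E2, a change of 1.91 (SE 0.38, adjusted p = 0.0410). For CNNM3 no E2 rat 4 was the lowest of its group, unlike for the other genes above. CELA1, an elastase gene, and PTPN5, a tyrosine phosphatase gene, had few reads and were named after their values were seen. Their values were 0 to 6.47 and 1.08 to 8.57 without E2 against 18.9 to 68.7 and 21.2 to 108.03 with E2.

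**Figure D1:**
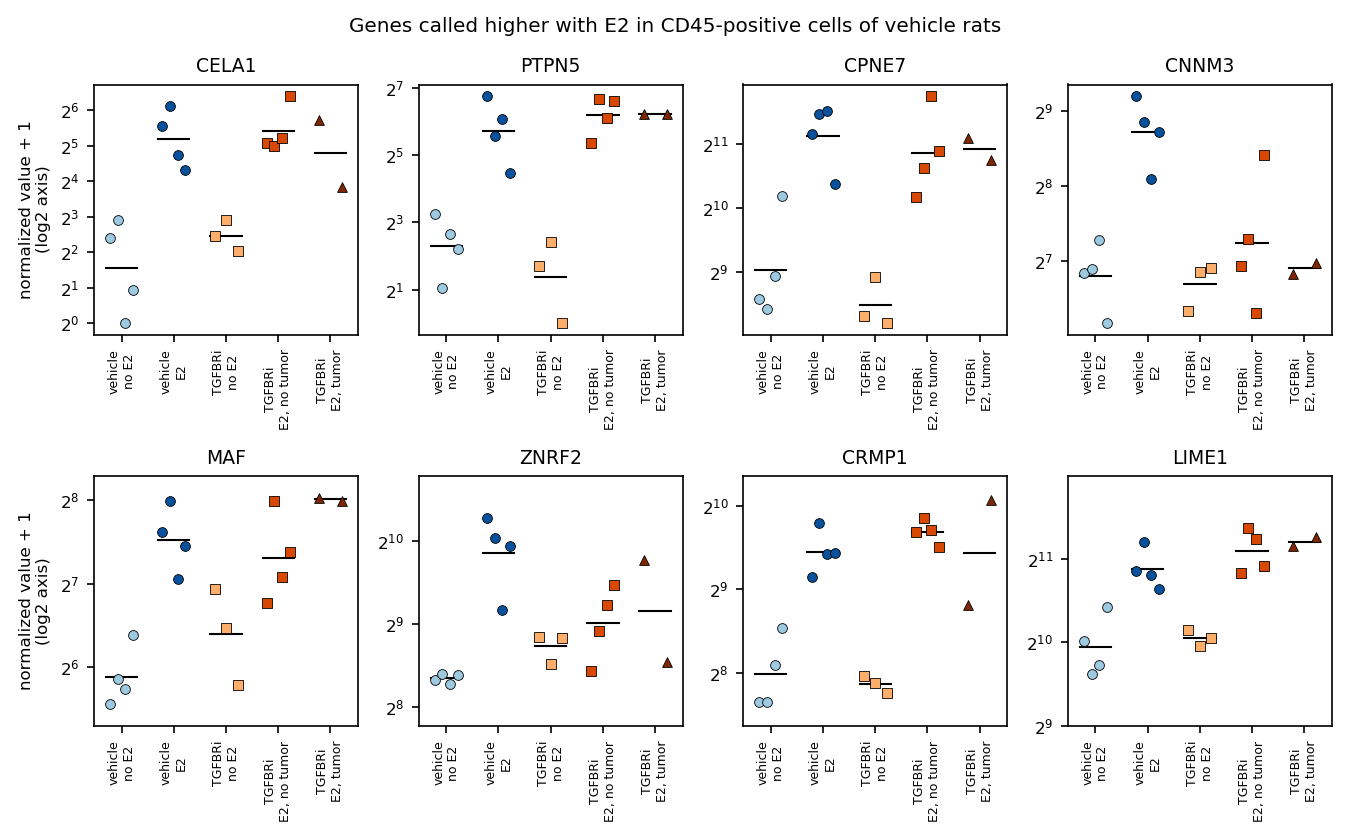
Normalized value plus 1 (log2 axis) of the 8 genes called higher with E2, 1 point per rat in the 5 CD45+ groups of the experiment, with horizontal lines at the mean of the log2 values. In each panel the 4 dark blue points (vehicle, E2) lie above the 4 light blue points (vehicle, no E2), and CNNM3 and ZNRF2 show overlapping groups among TGFBRi rats.

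The E2 contrast in TGFBRi-treated tumor-free rats shares no rat with the vehicle contrast. There limma called 752 genes (5.58%), 575 higher (4.26%) and 177 lower (1.31%), and 149 to 1040 with 1 rat left out, the fewest without no E2 rat 3 of the TGFBRi rats. Of the 8 genes raised in vehicle rats, 8 had the same direction and 5 were called there (CELA1, PTPN5, CPNE7, CRMP1 and LIME1), while over all genes tested 9064 (67.2%) had the same direction in both contrasts. PTPN5 reached 4.82 there (adjusted p = 0.00282) and CPNE7 2.37 (adjusted p = 0.00532). The 3 that were not called had changes of 0.91 for MAF (adjusted p = 0.135), 0.54 for CNNM3 (adjusted p = 0.474) and 0.28 for ZNRF2 (adjusted p = 0.638). The difference of the E2 effects between vehicle and TGFBRi tumor-free rats was tested for every gene, and 0 were called (0.0%), with 680 at an unadjusted p under 0.05, and 0 by edgeR and by DESeq2.

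In the 2 tumor-bearing TGFBRi rats with E2, set against the same 3 TGFBRi rats without E2, limma called 128 genes (0.949%), 83 higher (0.616%) and 45 lower (0.334%). Of the genes called in vehicle rats, 4 of the 8 raised and 13 of the 30 lowered were called in the same direction. One of these 2 rats stood apart, with a summed value of the neutrophil list of 123800 against 3116 to 9328 in the other TGFBRi rats. Without it 11 genes were called, and without the other tumor-bearing rat 2544, where the lone rat is assumed to vary like the other groups.

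The 30 genes that fell with E2 had higher levels in the luminal than in the CD45 sort. By the mean CPM of the 4 no E2 rats this held for all 30, against 5329 (41.2%) of the 12928 tested genes with a luminal value, and in each of these rats also for all 30, against 2847 of the 12928. By the mean of the 4 E2 rats it again held for all 30, against 5153 (39.9%), and in each E2 rat for 27, against 2944 (22.8%), while CAPN8, MSX2 and STC2 were not higher in at least 1 E2 rat. Among those named by rule were AQP5, TSKU, AADAT, ESRP1, KRT8, KRT19, SOX9, BCAR1, ANO1, CDC42EP1, CLU and BAIAP2L1. KRT8 and KRT19 encode keratins of luminal cells, ESRP1 an epithelial splicing regulator, AQP5 a water channel of secretory epithelia, ANO1 a calcium-activated chloride channel, SOX9 a transcription factor of luminal progenitors and CLU a secreted chaperone. The median change of the 30 was -3.66, and -3.68 with the 5 genes listed at 0 in every E2 rat set to the bound that 3 reads over the group allow. Their range was -6.07 to -1.57.

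KRT19 values were 809, 982, 1083 and 1225 without E2 and 83.5, 264, 226 and 115 with E2. The lowest no E2 rat lay above the highest E2 rat, and the change was -2.70 (SE 0.39, adjusted p = 0.00948). KRT8 values were 2384, 3208, 2775 and 3125 without E2 and 192, 755, 636 and 297 with E2, a change of -2.81 (SE 0.52, adjusted p = 0.0310). In both keratins E2 rats 1 and 4 were the lowest. AQP5 had 314, 486, 705 and 492 without E2 and 15.7, 7.36, 17.9 and 0 with E2, and its change of -6.07 (SE 1.12, adjusted p = 0.0310) was the largest fall of the 30 genes by limma. By DESeq2 it was not the largest, with -5.60 for AQP5 and -7.94 for SMIM38.

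SOX9 values were 619, 395, 543 and 1075 without E2 and 73.7, 100.6, 146 and 76.9 with E2, a change of -2.67 (SE 0.42, adjusted p = 0.0163). CLU values were 2549, 2316, 2975 and 3484 without E2 and 561, 737, 662 and 882 with E2, a change of -1.995 (SE 0.41, adjusted p = 0.0491). In both genes no E2 rat 4 had the highest value, and the groups did not overlap. ESRP1 values were 184, 114, 30.0 and 109 without E2 and 3.93, 3.68, 8.05 and 0 with E2, a change of -4.60 (SE 0.79, adjusted p = 0.0244).

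Of genes with fewer reads, WNT5A, RAB17 and BTC are given here after their values were seen. WNT5A, a secreted Wnt ligand, had values of 22.5, 22.7, 15.0 and 45.7 without E2 and 0, 0, 0 and 1.11 with E2, with the lowest adjusted p of all genes (0.00224). RAB17, a GTPase gene of epithelial trafficking, and BTC, a ligand of the EGF receptor, were listed at 0 in all 4 E2 rats and had 67 and 75 reads over the no E2 rats. Against the 3 reads over the group that a count of 0 allows, they were at least 21.8-fold and 25.1-fold lower. These bounds cover counting error only, not the spread between rats, and reads amplified without molecular identifiers are not independent molecules. WNT5A, KRT19 and RAB17 were called in each fit that left out 1 of the 8 rats, and none of the 8 raised genes was.

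**Figure D2:**
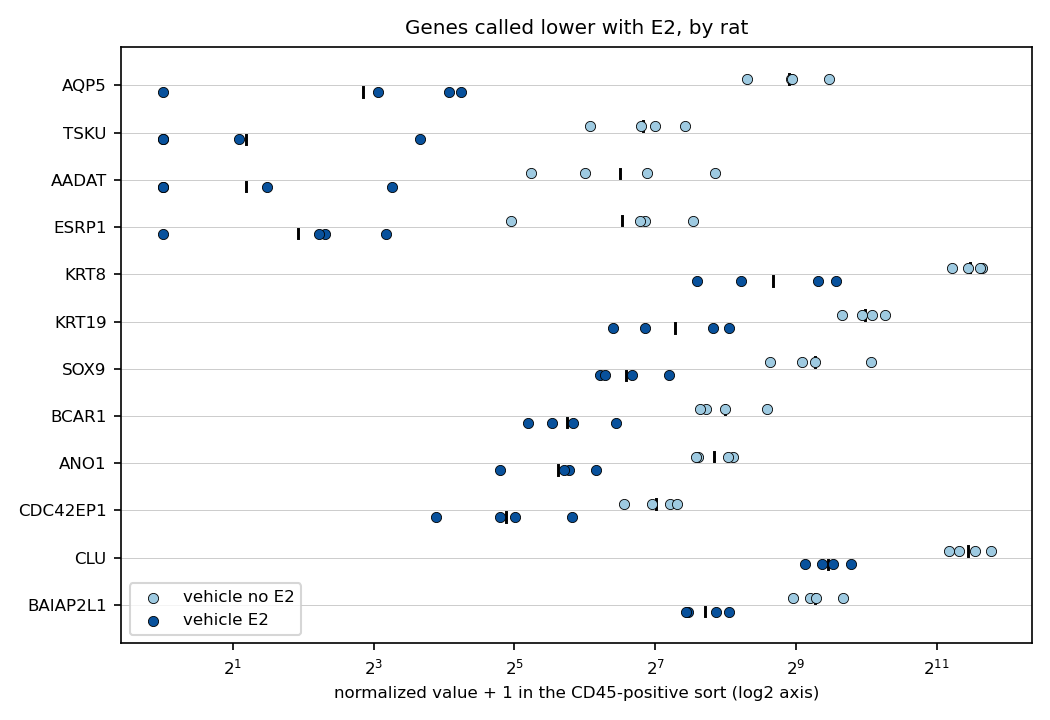
Normalized value plus 1 (log2 axis) in the CD45 sort of each vehicle rat for the 12 genes called lower with E2 that are listed above by rule, with vertical bars at the mean of the log2 values. The dark blue points (E2) lie to the left of the light blue points (no E2) for each gene, and AQP5, TSKU, AADAT and ESRP1 reach 0 in at least 1 E2 rat.

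All 30 genes had the same direction in TGFBRi tumor-free rats, with a median change of -1.64 there, and 9 were called, while 67.2% of all genes had the same direction in both contrasts and 1.31% were called lower there. AQP5 changed by -5.30 in those rats (adjusted p = 0.0202), KRT19 by -1.25 (adjusted p = 0.0938) and KRT8 by -1.56 (adjusted p = 0.110).

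The luminal sort of the same 8 vehicle rats gives the levels of these genes in epithelium. Levels are given as CPM, since the sorts were scaled separately, and were not tested. The summed level of the 30 genes in the CD45 sort was 474, 423, 498 and 524 without E2 and 67.1, 105.9, 103.8 and 82.4 with E2. In the luminal sort it was 22128, 17368, 25520 and 16489 without E2 and 11812, 10661, 11602 and 12526 with E2. The levels in CPM thus lay lower with E2 in both sorts, with 28 of the 30 genes lower in the luminal sort at a median log2 difference of -0.90. CPM is a share of the library, so that a rise of some genes lowers the others. In the luminal sort the 11 milk genes took 153610 to 188090 CPM with E2 and 8479 to 100120 without. How much this adds to the lower luminal levels was not tested. As a share of the luminal level, the CD45 level was 1.95 to 3.18% without E2 and 0.568 to 0.993% with E2, and the ranges did not overlap. The lower CD45 sums with E2 follow from how the 30 genes were chosen, and these shares are a description.

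The luminal epithelium list as a whole lay lower with E2. Of its 15 measured genes 14 had a change below 0, with a median of -2.13 against -0.04 over all genes. At an unadjusted p of 0.05, 10 were lower (5.91% of all genes), and 2, KRT8 and KRT19, were called lower (0.223%). With only the 2 vehicle groups in the fit 9 were called, where 0.506% of all genes were called lower. Of the 15, 11 had groups that did not overlap with E2 lower (3.38% of all genes). Its summed level in the CD45 sort was 419.9 to 658 CPM without E2 and 72.8 to 149.6 with E2, or 1.27 to 2.00% and 0.307 to 0.738% of the luminal sort. The epithelial adhesion gene EPCAM had values of 1072, 1873, 1053 and 1721 without E2 and 228, 446, 495 and 299.7 with E2. The groups did not overlap, and the change of -1.98 (SE 0.43) had an adjusted p of 0.0604. EPCAM was called by DESeq2 (adjusted p = 0.00133). Basal epithelium (10 genes) had a median change of 0.08 (-0.11 to 0.12 under other scalings), with 5 genes above and 5 below 0. Endothelium (11 genes) lay lower with E2, with a median of -0.68 (-0.69 to -0.45 under other scalings), 8 genes below 0 and 0 called. Of the 11, 4 (CDH5, EMCN, SELE and SELP) were lower at an unadjusted p of 0.05 (5.91% of all genes) and had groups that did not overlap (3.38%). The summed value of the endothelium list was 5528, 7223, 4991 and 4365 without E2 and 3759, 2909, 3130 and 4174 with E2, and the groups did not overlap. The summed value of 6 erythroid and platelet genes was also apart, at 282 to 429 without E2 and 60.2 to 245 with E2. Their median change was -0.29 (-0.71 to 0.04 with 1 rat left out), with 0 called. By the mean CPM of the E2 rats, 9 of the 11 endothelium genes and 2 of the 6 erythroid and platelet genes were higher in the luminal sort. The part of endothelial, erythroid and platelet RNA in the results was not tested.

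Milk genes lay higher with E2 in the epithelium. In the luminal sort all 11 were higher with E2, and their summed level was 30167, 31039, 8479 and 100120 CPM without E2 against 171570, 188090, 163960 and 153610 with E2. The highest luminal level without E2 was that of rat 4. In the CD45 sort the summed level was 119, 246, 89.5 and 1806 CPM without E2 and 299, 1181, 983 and 489 with E2, or 0.395 to 1.80% and 0.174 to 0.628% of the luminal sort. Without rat 4 the CD45 groups were apart, and with it they overlapped. The part of epithelial RNA in the CD45 libraries in the changes of these genes was not tested beyond these levels.

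CSN2, the gene of β-casein, had CD45 values of 945, 313, 33.2 and 19963 without E2 and 4226, 17307, 12583 and 6058 with E2. No E2 rat 4 had the highest value of all 8, and the change of 3.69 (SE 1.35) was not called (adjusted p = 0.276). DESeq2 and edgeR on recovered reads, with all rats, gave changes of 0.92 (adjusted p = 0.824) and 0.93 (adjusted p = 0.828). Without that rat the limma change was 5.32 (adjusted p = 0.0170), and the adjusted p was up to 0.550 when another rat was left out. CSN1S2A, a casein gene, had 22.5, 49.6, 3.21 and 382 without E2 and 352, 1236, 1045 and 665 with E2, a change of 4.32 (adjusted p = 0.0771) with all rats, 2.85 with DESeq2 (adjusted p = 0.106) and 5.44 (adjusted p = 0.00397) without rat 4. GLYCAM1, a mucin gene of milk, was the third milk gene called without rat 4, and with all rats its change was 3.46 (adjusted p = 0.241), or 1.16 with DESeq2 (adjusted p = 0.748). The 11 milk genes as a whole had no stable direction in the CD45 sort: their median was 0.37 with 7 above and 4 below 0 by limma, and -0.29 with 4 above and 7 below 0 by DESeq2 and by edgeR. The median was -0.10 without no E2 rat 1 and without no E2 rat 3, and 1.03 without no E2 rat 4. The butyrophilin gene BTN1A1 changed by -1.11 (adjusted p = 0.450) and the κ-casein gene CSN3 by -0.14 (adjusted p = 0.961). In TGFBRi tumor-free rats 4 of the 11 were called higher (4.26% of all genes), with a median of 2.29. CSN2 changed by 6.30 (adjusted p = 0.0222) in those rats and CSN1S2A by 6.37 (adjusted p = 0.00532).

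**Figure D3:**
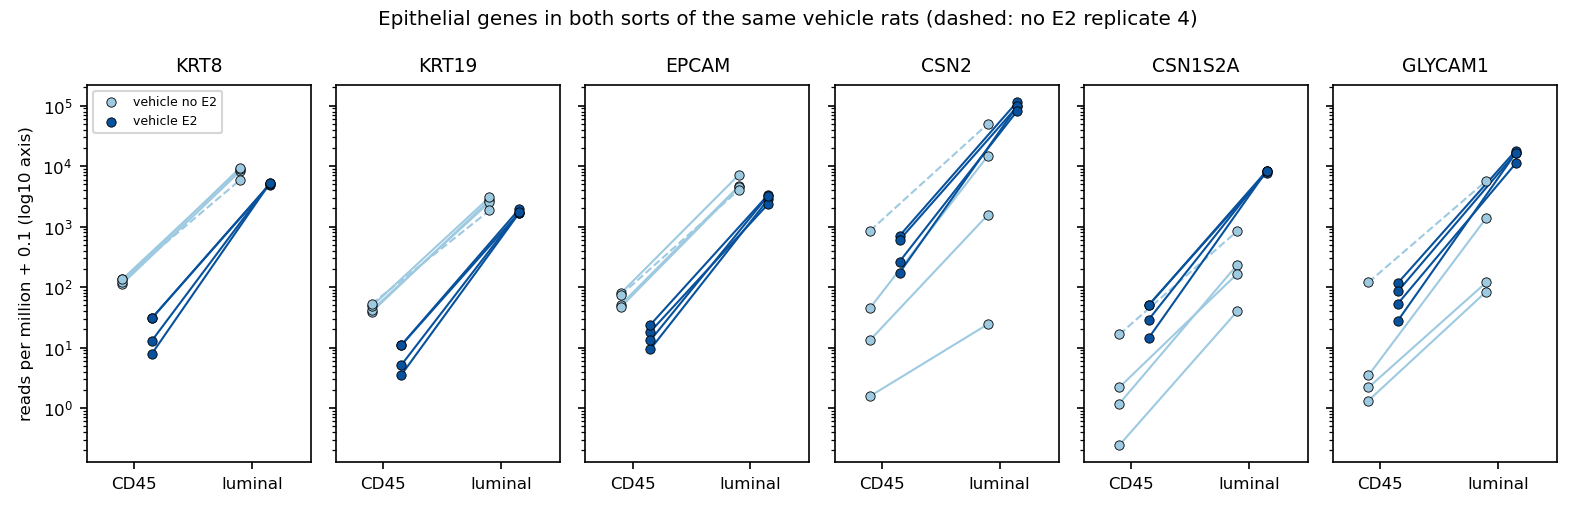
CPM plus 0.1 (log10 axis) of 6 epithelial genes in the CD45 and the luminal sort, with a line joining the 2 sorts of each vehicle rat and no E2 rat 4 dashed. KRT8, KRT19 and EPCAM lie lower with E2 in the CD45 sort, and KRT8 and EPCAM also in the luminal sort, whereas CSN2, CSN1S2A and GLYCAM1 lie higher with E2 in both sorts, apart from rat 4 in the CD45 sort.

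The promoters of 3 of these milk genes are shown since prolactin acts on milk genes through STAT5, whose binding motif TTCNNNGAA (the same on both strands) they hold. The windows run from 250 bases before to 50 bases after the RefSeq start on GRCr8, read 5′ to 3′ on the strand of the gene, with the motif in capitals.
CSN2, chr14:20601574-20601873, plus strand: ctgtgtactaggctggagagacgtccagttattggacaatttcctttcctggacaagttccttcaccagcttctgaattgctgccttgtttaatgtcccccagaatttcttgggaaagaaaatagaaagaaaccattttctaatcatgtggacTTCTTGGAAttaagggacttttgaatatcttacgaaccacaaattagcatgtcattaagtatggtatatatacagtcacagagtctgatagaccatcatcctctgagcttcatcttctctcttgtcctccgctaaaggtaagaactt
CSN1S2A, chr14:20574422-20574721, minus strand: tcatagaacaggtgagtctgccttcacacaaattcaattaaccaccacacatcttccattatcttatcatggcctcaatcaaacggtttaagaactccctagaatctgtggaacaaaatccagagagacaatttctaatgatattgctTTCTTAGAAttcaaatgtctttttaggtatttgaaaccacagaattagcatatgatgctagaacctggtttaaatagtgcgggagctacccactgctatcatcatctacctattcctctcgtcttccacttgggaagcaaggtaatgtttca
GLYCAM1, chr7:136561250-136561549, minus strand: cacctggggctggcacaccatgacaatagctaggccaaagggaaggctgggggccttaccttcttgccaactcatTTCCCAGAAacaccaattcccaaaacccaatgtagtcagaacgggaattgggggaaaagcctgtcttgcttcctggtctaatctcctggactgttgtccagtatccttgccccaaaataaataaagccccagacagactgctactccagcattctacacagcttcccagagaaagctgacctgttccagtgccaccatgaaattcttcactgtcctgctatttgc
The motif occurred in 5 of the 10 milk gene promoters with a RefSeq entry (CSN1S1, CSN1S2A, CSN1S2B, CSN2 and GLYCAM1), against 8.87% of all 33469 promoters and 6.82% of those of genes tested. It occurred in 0 of the 7 matched promoters of raised genes and in 1 of the 22 of lowered genes (SMIM38). The palindromic estrogen response element (GGTCA and its reverse complement TGACC with 3 bases between, the same on both strands) occurred in 9 of the 33469 promoters (0.0269%) and in none of those of the called genes. A match is a description of the letters and not of binding.

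Genes of estrogen response were of mixed direction in the CD45 sort, and the receptor genes ESR1 and GPER1 had low values. ESR1 had values of 11.8, 20.5, 19.3 and 17.4 without E2 and 4.91, 0, 0 and 0 with E2. The groups did not overlap and the change of -3.52 (SE 0.96) was not called (adjusted p = 0.1304). Its level was higher in the luminal sort. GPER1 was at 6.43, 0, 11.8 and 0 without E2 and at 0 in all 4 E2 rats, and ESR2 was not among the genes tested. Among estrogen targets PGR, the progesterone receptor gene, had 54.7, 44.2, 82.4 and 35.7 without E2 and 0.982, 4.91, 8.94 and 7.80 with E2 (adjusted p = 0.1304, and 0.0429 with DESeq2), and it too was higher in the luminal sort. PDZK1, a scaffold gene known as an estrogen target, had 45.01, 101.4, 97.4 and 620.0 without E2 and 1146, 1076, 578 and 463 with E2. The groups overlapped through no E2 rat 4, the change being 2.54 (SE 0.67, adjusted p = 0.123), 1.92 with DESeq2 (adjusted p = 0.169), or 3.29 (adjusted p = 0.00618) without this rat, and PDZK1 was called in TGFBRi tumor-free rats at 4.47 (adjusted p = 0.00457). It was not higher in the luminal sort. Of the 12 genes of the list 4 had a change above 0 and 8 below, with a median of -0.48. By the mean CPM of the E2 rats, 9 of the 12 were higher in the luminal sort. The summed value of the list was 10325, 13500, 15245 and 18411 without E2 and 22030, 22854, 14048 and 15834 with E2, and the groups overlapped.

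Genes of cytotoxic T and NK cells had higher mean values with E2, although none of the 19 measured was called with all rats. Their changes were above 0 for 18 of 19 with a median of 0.91 (all genes -0.04), and 9 were higher at an unadjusted p of 0.05, against the 6.15% of genes given above. Of the 19, 0 had groups that did not overlap with E2 higher (2.81% of all genes). Without no E2 rat 4 limma called 6 of the 19 higher (0.961% of all genes): GZMA and GZMM (granzymes), IFNG (interferon γ), FASLG (the death ligand of activated killer cells), CTSW (a cathepsin of cytotoxic cells) and CCL5 (a chemokine of effector T cells). In each of the 7 fits that left out another rat 0 of the 19 were called. In TGFBRi tumor-free rats 14 of 19 were called higher (4.26% of all genes), with a median of 2.17. The summed value of the list was 15355, 18365, 19595 and 54410 without E2 and 75492, 89167, 44839 and 31439 with E2, so that rat 4 lay within the range of the E2 rats and the other 3 no E2 rats below it.

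GZMA values were 294, 480.2, 389 and 3904 without E2 and 4802, 8619.9, 1514 and 1790.2 with E2. No E2 rat 4 lay above 2 of the 4 E2 rats, and the change was 2.26 (SE 0.77, adjusted p = 0.248), or 3.10 (adjusted p = 0.0249) without this rat. IFNG values were 422, 291, 386 and 1403 without E2 and 3163, 4477, 1225 and 1014 with E2. The same rat gave the overlap, with a change of 2.01 (SE 0.54, adjusted p = 0.132), or 2.496 (adjusted p = 0.0194) without it. FASLG values were 708, 852, 683 and 2948 without E2 and 5984, 4734, 2482 and 1835 with E2, with a change of 1.68 (SE 0.49, adjusted p = 0.163), or 2.18 (adjusted p = 0.0164) without rat 4. The difference of the E2 effects between vehicle and TGFBRi tumor-free rats was not called for any of these genes.

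GZMM values were 839, 1138, 1376 and 4453 without E2 and 7599, 13766, 5344 and 2482 with E2. With E2 rat 2 was the highest and rat 4 the lowest, below no E2 rat 4, and the change was 1.97 (SE 0.55, adjusted p = 0.153), or 2.48 (adjusted p = 0.0235) without the latter. CTSW values were 2438, 3103, 3472 and 7916 without E2 and 11667, 13799, 10853 and 5197 with E2, with a change of 1.36 (SE 0.37, adjusted p = 0.131). CTSW was 1 of the genes DESeq2 called with all rats (adjusted p = 0.0357). GZMB had 253, 312, 419 and 1340 without E2 and 2583, 965, 203 and 1110 with E2 (change 0.91, adjusted p = 0.702), and the perforin gene PRF1 changed by 0.38 (adjusted p = 0.581). KLRB1A, a killer cell lectin receptor gene, changed by 1.92 (adjusted p = 0.318), and the receptor genes of this kind belong to a multigene family whose reads may be split among copies.

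**Figure D4:**
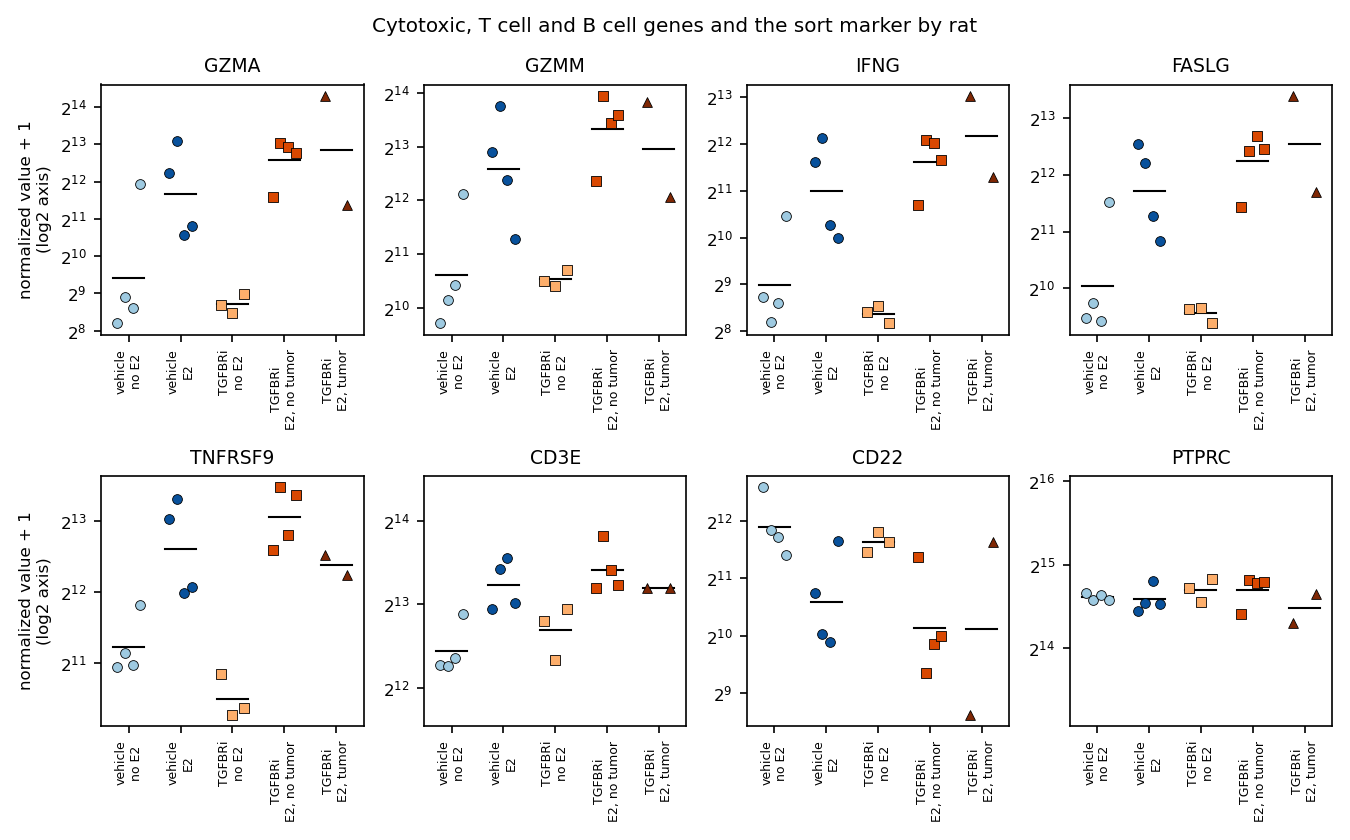
Normalized value plus 1 (log2 axis, at least 3 doublings high) of 7 lymphocyte genes and PTPRC, 1 point per rat in the 5 CD45+ groups, with lines at the mean of the log2 values. For GZMA, GZMM, IFNG and FASLG 1 light blue point (no E2 rat 4) lies among the dark blue points, and PTPRC lies at about the same height in all groups.

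Pan-T cell genes lay higher with E2 by a smaller amount. Of 20 measured, 19 had a change above 0, with a median of 0.59, 11 were higher at an unadjusted p of 0.05 (6.15% of all genes), 3 had groups that did not overlap with E2 higher (2.81% of all genes) and 0 were called. DESeq2 called CD3E, CD2 and ZAP70 (1.02% of all genes were called higher by it), and limma without no E2 rat 4 called CD3E, CD2, ZAP70 and LAT, which encode a T cell receptor subunit, an adhesion receptor, a kinase and an adaptor of T cell receptor signaling. CD3E values were 4942, 4883, 5261 and 7569.9 without E2 and 7847, 10981, 12054 and 8268 with E2. All E2 rats lay above all no E2 rats, with a change of 0.79 (SE 0.20, adjusted p = 0.0976). CD2 values were 2733, 2853, 3866 and 5763 without E2 and 6353, 10206, 6862 and 7611 with E2, also apart, with a change of 1.07 (SE 0.25, adjusted p = 0.0771). CD4 changed by 0.33 (adjusted p = 0.737) and CD8A by 0.73 (adjusted p = 0.422), and both overlapped between groups. In TGFBRi tumor-free rats the list had a like median, 0.57, with 2 genes called higher (4.26% of all genes) and 1 lower (1.31%).

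All 11 measured genes of regulatory T cells and checkpoint receptors had a change above 0, with a median of 0.61, 7 were higher at an unadjusted p of 0.05 (6.15% of all genes) and 4 had groups that did not overlap with E2 higher (2.81% of all genes). TNFRSF9, the costimulatory receptor 4-1BB, came closest to the threshold with 1975, 2258, 2013 and 3613 without E2 and 8364, 10176, 4076 and 4327 with E2. All E2 rats lay above no E2 rat 4, and the change was 1.38 (SE 0.29, adjusted p = 0.0529). It was called by DESeq2 (adjusted p = 0.00119), without no E2 rat 4 (1.58, adjusted p = 0.0155) and in TGFBRi tumor-free rats (2.56, adjusted p = 0.00176), where 5 of the 11 were called higher (4.26% of all genes). FOXP3, the master transcription factor of regulatory T cells, had 577, 524, 509 and 369 without E2 and 593, 1019, 797 and 946 with E2. Here no E2 rat 4 was the lowest of the 8, and the change was 0.75 (SE 0.23, adjusted p = 0.195).

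Of type 17 and γδ T cell genes 8 of 10 had a change above 0, with a median of 0.64. Of these 1, MAF, was called higher (0.0593% of all genes), though not by edgeR (adjusted p = 0.0828). IL17A, the cytokine of these cells, had 144, 57.2, 62.1 and 129 without E2 and 543, 408, 554 and 99.1 with E2. E2 rats 1 to 3 lay above and E2 rat 4 within the no E2 range, and the change was 1.87 (SE 0.54, adjusted p = 0.155). It was called by DESeq2 (adjusted p = 0.00586) and in TGFBRi tumor-free rats (3.63, adjusted p = 0.00364). Among cytokines, CSF2, the granulocyte-macrophage factor, had 32.1, 31.3, 39.6 and 112 without E2 and 347, 426, 138 and 94.7 with E2, with a change of 2.16 (SE 0.56, adjusted p = 0.110). The type 2 cytokine genes IL4 and IL13 changed by 2.13 (adjusted p = 0.270) and 3.21 (adjusted p = 0.223). With all rats DESeq2 called CSF2 (adjusted p = 0.00645) and not IL4 (adjusted p = 0.381). Limma called both without no E2 rat 4, and the list of 20 inflammatory cytokines as a whole had a median of 0.08. Of 17 chemokine receptor genes 12 had a change above 0 (median 0.53), and CXCR3, a receptor of effector T cells, was called by DESeq2 with all rats (adjusted p = 0.0328) and by limma without no E2 rat 4.

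B cell genes lay on the other side. All 13 measured had a change below 0, with a median of -0.85, and 0 were called. Only CD22, a B cell lectin receptor, was lower at an unadjusted p of 0.05 (5.91% of all genes). With only the 2 vehicle groups in the fit 10 of the 13 were lower at an unadjusted p of 0.05 (7.8% of all genes), and with edgeR 0, again with 0 called in either. CD22 had 6148, 3661, 3352 and 2715 without E2 and 1715, 1047, 948 and 3229 with E2, a change of -1.30 (SE 0.56, adjusted p = 0.367). E2 rat 4 was the highest of its group and lay within the no E2 range. In TGFBRi tumor-free rats the median was -2.52, with all 13 lower at an unadjusted p of 0.05 (10.2% of all genes) and 0 called. MHC class II genes had a median of -0.41, with 10 of 11 below 0 and 0 called, and the RT1 genes among them are copies of a multigene family.

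Myeloid genes varied widely between rats. Macrophage genes had a median of -0.99, with 16 of 18 below 0 and 0 called. At an unadjusted p of 0.05, 2 were lower (5.91% of all genes) and 1 was higher (6.15%). The summed value of the macrophage genes was 5062, 4404, 9282 and 15843 without E2 and 7231, 8868, 1236 and 2560 with E2. E2 rats 3 and 4 were the lowest of the 8, while E2 rats 1 and 2 lay among the no E2 rats. C1QA, a complement gene of macrophages, had 477, 485, 756 and 2047 without E2 and 1019, 1152, 92.1 and 268 with E2. In TGFBRi tumor-free rats the macrophage median was 0.98, with 17 of 18 above 0 and 1 called higher (4.26% of all genes). The complement list as a whole had 18 of 22 genes below 0 (median -0.91), and CFI, the gene of complement factor I, was among the 30 lowered genes and higher in the luminal sort. Neutrophil genes had a median of 1.47 (0.65 with edgeR on recovered reads), with 9 of 13 above 0, 2 higher at an unadjusted p of 0.05 (6.15% of all genes) and 0 called. Their summed value was 4402, 7137, 4991 and 5256 without E2 and 4653, 6280, 4498 and 4635 with E2, and the groups overlapped. S100A8, an abundant neutrophil transcript, had 6.43, 17.3, 70.6 and 407 without E2 and 188, 640.1, 305 and 218 with E2 (change 2.75, adjusted p = 0.398; 1.42 with edgeR).

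**Figure D5:**
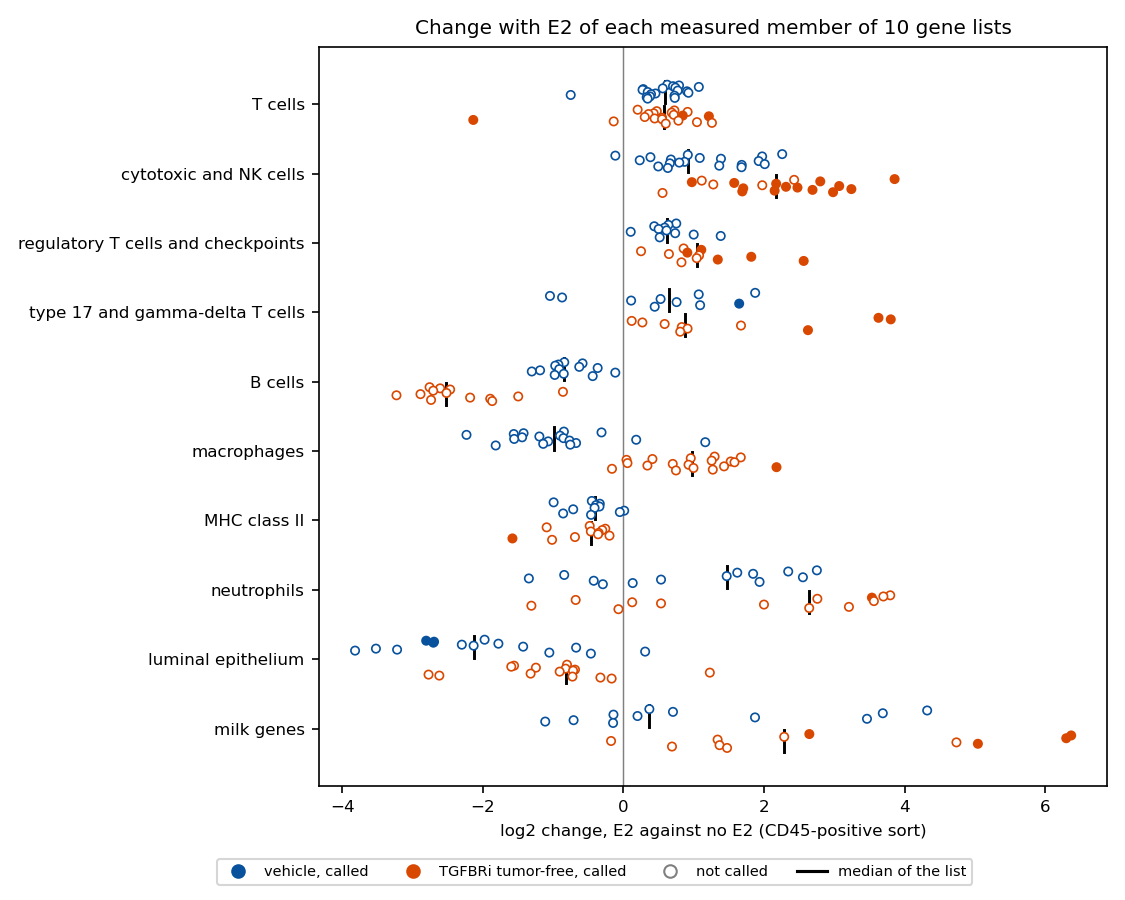
Log2 change with E2 of each measured member of 10 gene lists in the CD45 sort, in vehicle rats (blue) and in TGFBRi tumor-free rats (orange), with filled points for called genes and a black bar at the list median. Cytotoxic genes lie to the right in both contrasts (medians 0.91 and 2.17), B cell genes to the left (medians -0.85 and -2.52), and macrophage genes on opposite sides (medians -0.99 and 0.98).

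Genes of the cell cycle, interferon and TGFβ held 0 calls by limma with all rats. S phase genes (20) and G2/M genes (21) had medians of 0.01 and 0.12, both of either sign when 1 rat was left out, with 0 called, and the proliferation marker MKI67 had a change of 0.22 (SE 0.50, adjusted p = 0.9001). Of 22 interferon-stimulated genes 17 had a change below 0 (median -0.31) and 0 were called. IFIT2, an interferon-induced inhibitor of translation, had 1158, 1486, 1168 and 854 without E2 and 663, 618, 386 and 681 with E2. The groups did not overlap, with a change of -0.997 (SE 0.24, adjusted p = 0.0849), and IFIT2 and OASL were called lower by DESeq2 with all rats (adjusted p = 0.0103 and 0.00299) and by limma without no E2 rat 4. OASL was higher in the luminal sort and IFIT2 was not.

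TGFβ is given here since its receptor is the target of the drug used in the other rats. Of 18 pathway and target genes 10 had a change above 0 and 8 below (median 0.13), with 0 called. PMEPA1, a feedback inhibitor of TGFβ signaling, had 222, 358, 235 and 583 without E2 and 1329, 942, 687 and 581 with E2. The groups met at no E2 rat 4 and E2 rat 4, and the change was 1.38 (SE 0.40, adjusted p = 0.160). SMAD7, the inhibitory SMAD, had 2801, 6015, 6058 and 4515 without E2 and 17528, 13633, 5809.9 and 12869.8 with E2, a change of 1.32 (SE 0.42, adjusted p = 0.222). Both passed DESeq2 with all rats (adjusted p = 0.0451 and 0.0441). JAK-STAT5 and cytokine feedback genes had a median of 0.32, with 11 of 13 above 0 and 0 called.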

How the data were processed

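Bulk RNA-seq of sorted mammary cells was read from the deposited tables, 1 per library. According to their methods, the authors aligned single-end reads of 75 bases with STAR 2.5.1b to rn6, counted them on genes with HTSeq and normalized them with DESeq2 1.30.1; the deposited unit is a signal, reads divided by the size factor of the library. In 28 libraries 341785 of 341785 values above 0 were whole multiples of 1 step each (tolerance 0.001), which gave back the reads for the alternatives. Rows that name no gene took 37.9 to 42.5% of the reads of vehicle CD45 libraries and were left out of totals and tests.

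Log2 of the value plus 1 was fitted by limma 3.58.1 (trended prior, robust variances, R 4.3.3) over the CD45 libraries of the E2 experiment, 17 rats in 5 groups that share 1 estimate of spread, for genes whose values sum to at least 10. The 4 libraries of 1 TGFBRi tumor-free rat were averaged. Alternatives were DESeq2 1.42.0 and the quasi-likelihood test of edgeR 4.0.16, with TMM, on the recovered reads, pseudocount 5, other filters, TMM scaling, reads thinned to 19571343, only the groups compared, leaving out genes higher in the luminal sort, and leaving out each rat. Each other library is 1 rat, and rats are numbered as names only. Tables of 213 other samples were not used here.

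Named genes were the called genes that averaged 50 or more reads with groups that did not overlap (up to 15 per direction), members of 34 gene lists (472 of 528 genes tested), estrogen receptor genes and PTPRC. Others are marked, and some genes that met the rule are not reported here. The members were set by the labels, and the choice of members, lists and tests was made with earlier results of these data known. The fits were tested on simulated data, where DESeq2 recovered more of the changed genes and made more false calls than limma or edgeR. No molecular identifiers were used. Promoters came from RefSeq on GRCr8. Tables were handled in Python 3.11.15 with pandas 2.3.3, numpy 2.4.6 and matplotlib 3.10.9.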

Additional observations from a re-analysis of the deposited data

Results flagged for a closer look

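Among 173 sets of 4 rats (a called gene or a list's summed value in 1 group), 14 had a highest or lowest rat whose gap to the nearest other rat, as a share of the group's range, was above Dixon's 95% critical value for 4 rats, and chance alone gives about 1 in 20. Gap and range were taken on log2 of the value plus 1, while the values printed here are not logged. For 7 lowered genes with few reads the share was 1 because 1 E2 rat held the only value above 0: CHST8 (1.11), MLPH (3.34), STC2 (4.46) and WNT5A (1.11) in rat 4, and LRATD1 (13.4), SMIM38 (0.894) and TMPRSS13 (1.79) in rat 3.

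No E2 rat 4 was the highest of its group for TMEM30B (0.855), a gene of a phospholipid flippase subunit, with a value of 109 against 49.6 to 55.7, and for the summed regulatory T cell and checkpoint list (0.913), with 20746 against 15806 to 16184. E2 rat 2 was the highest for the neutrophil list (0.898), with 6280 against 4498 to 4653, and for the adipocyte list (0.88), with 1762 against 557 to 639. No E2 rat 1 was the lowest for G2/M genes (0.905), with 10190 against 11600 to 11760. E2 rat 3 was the lowest for JAK-STAT5 and cytokine feedback genes (0.927), with 59490 against 82200 to 84330. Among the 4 TGFBRi tumor-free rats with E2, 1 was the highest for inflammatory cytokines (0.96), with 73010 against 32840 to 33900.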

How the results depend on the processing

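The number of genes called in vehicle rats was 38, and it moved to 0 with edgeR, 251 with DESeq2, 7 with a mean value of at least 10 as filter, 75 with only the 2 vehicle groups in the fit, 0 without genes higher in the luminal sort, and 4 to 182 with 1 rat left out. It was 54 with a pseudocount of 5, 43 without a filter, 34 with TMM scaling and 31 with thinned reads. In TGFBRi tumor-free rats 752 calls became 1539 with DESeq2, 1147 with only the groups compared and 149 to 1040 with 1 rat left out (414 without the rat of 4 libraries). In TGFBRi tumor-bearing rats 128 calls became 613 with DESeq2, 0 with only the groups compared and 9 to 2544 with 1 rat left out. The difference of the E2 effects had 0 calls, and 0 to 1 with 1 rat left out, the 1 without vehicle E2 rat 2. The cause of these moves was not tested.

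Over single genes and alternatives, 1361 values of called genes kept their call and 783 lost it, none with a change of direction. These counts pool the E2 contrasts of vehicle, TGFBRi tumor-free and TGFBRi tumor-bearing rats. Of the 8 raised and 30 lowered genes of vehicle rats, 0 and 3 were called in every fit with 1 rat left out, and edgeR called 0. Of list medians, 441 moved by less than the spread between rats and 1 by more. A median that changed sign within this spread counts among the former, as for milk genes, basal epithelium and S phase genes. No paired analysis was possible because the groups hold different rats and the replicate numbers only name them. With all rats limma called 0 of the cytotoxic and milk genes, and DESeq2 called CTSW.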
